A study of Mus musculus with 31 samples.

Results

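The 33 genes described here mark B cells, plasma cells, dendritic cells, monocytes and macrophages, or make up the MHC class II pathway by which such cells present antigen. They were taken from the count table by matching Ensembl identifiers to their symbols, and all 33 were found, each in 1 row of the 53700 rows. They fell into 10 B cell genes, 1 plasma cell gene, 5 genes of MHC class II presentation, 3 dendritic cell genes and 14 myeloid genes. The choice of genes used no measured value, but it was made with earlier results from these libraries known. The genes served as a reading of cells outside the T lineage in sorted T lineage populations, above all in the DN sort.

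The series measured polyadenylated RNA of thymocytes and splenic T cells in C57BL/6 mice, an inbred strain, with no treatment, and asked how adults and neonates differ during thymocyte development. Adults were 12 weeks old and neonates were 5 to 7 days old. At each age 4 populations were sorted by flow cytometry after magnetic enrichment. DN (double negative) thymocytes were a pool of the DN1 to DN3 steps, which the sample descriptions state for the adult libraries and the series text for both ages, taken from cells that neither the CD4 beads nor the CD8a beads had held. DP (double positive) thymocytes carry both CD4 and CD8, SP8 thymocytes carry CD8 alone, and CD8 stands for naive splenic CD8 T cells. There were 31 libraries in 8 groups, 3 for adult DN (numbered 2, 3 and 4) and 4 for every other group. Replicate 1 of adult DN was not analysed here. The antibodies named for the thymocyte sorts bind CD4, CD8, CD44 and CD25. None named in the sources used here is against a marker specific to B cells, myeloid cells or dendritic cells. Whether the named antibodies removed a part of such cells was not tested. The series calls its libraries biological replicates without saying whether each came from 1 animal, a pool or a separate sort. The p-values below thus measure the spread between these libraries, part of which may be technical. Unless stated otherwise, that spread was estimated over all 8 groups together, not within the groups compared.

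B cells recognise antigen through surface immunoglobulin, which signals through the CD79A and CD79B proteins, and plasma cells secrete immunoglobulin. B cells, dendritic cells and macrophages load peptides onto MHC class II molecules, whose genes are switched on by the coactivator CIITA. The thymus holds a small resident population of B cells and dendritic cells that takes part in deleting self-reactive T cells, together with macrophages that clear dying thymocytes. A sort defined by the absence of CD4 and CD8 can retain such cells, while sorts for CD4 and CD8 select cells by what they carry.

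Library totals ran from 12883293 to 25161889 counts, with a median of 16442905. Levels are given as CPM, which is the count relative to the TMM-scaled library size, and 3 counts in 1 library, the floor used for very low genes, stood for 0.115 to 0.256 CPM. Sorting markers followed the labels: Cd4 averaged 2.26 ± 0.85 CPM (SD, n = 3) in adult DN and 5.47 ± 0.88 (SD, n = 4) in neonatal DN against 1679 ± 27.1 (SD, n = 4) in adult DP. Cd8a averaged 14.2 ± 2.44 CPM (SD, n = 3) in adult DN and 66.6 ± 2.18 (SD, n = 4) in neonatal DN against 3239 ± 205 (SD, n = 4) in adult DP. The pre-T cell receptor gene Ptcra, a marker of DN thymocytes, stood at 69.5 ± 10.99 CPM (SD, n = 3) in adult DN and 76.9 ± 4.32 (SD, n = 4) in neonatal DN.

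In adult DN libraries nearly all members were present, and in neonatal DN libraries most were present at a lower level. Of the 33 members, 30 averaged at least 1 CPM in adult DN and 28 did in neonatal DN. In the other populations the number was 11 in adult DP, 9 in neonatal DP, 14 in adult SP8, 10 in neonatal SP8, 14 in adult CD8 and 17 in neonatal CD8. The 3 complement genes C1qa, C1qb and C1qc averaged under 1 CPM in every group and were too low for testing, so 30 members entered the fit of 16461 genes. Of these 30, 26 had their highest group mean in adult DN. The other 4 were Siglech, highest in neonatal DN, Itgam, highest in neonatal DP, Ctss, highest in adult CD8, and Fcgr3, highest in neonatal CD8.

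**Figure D1:**
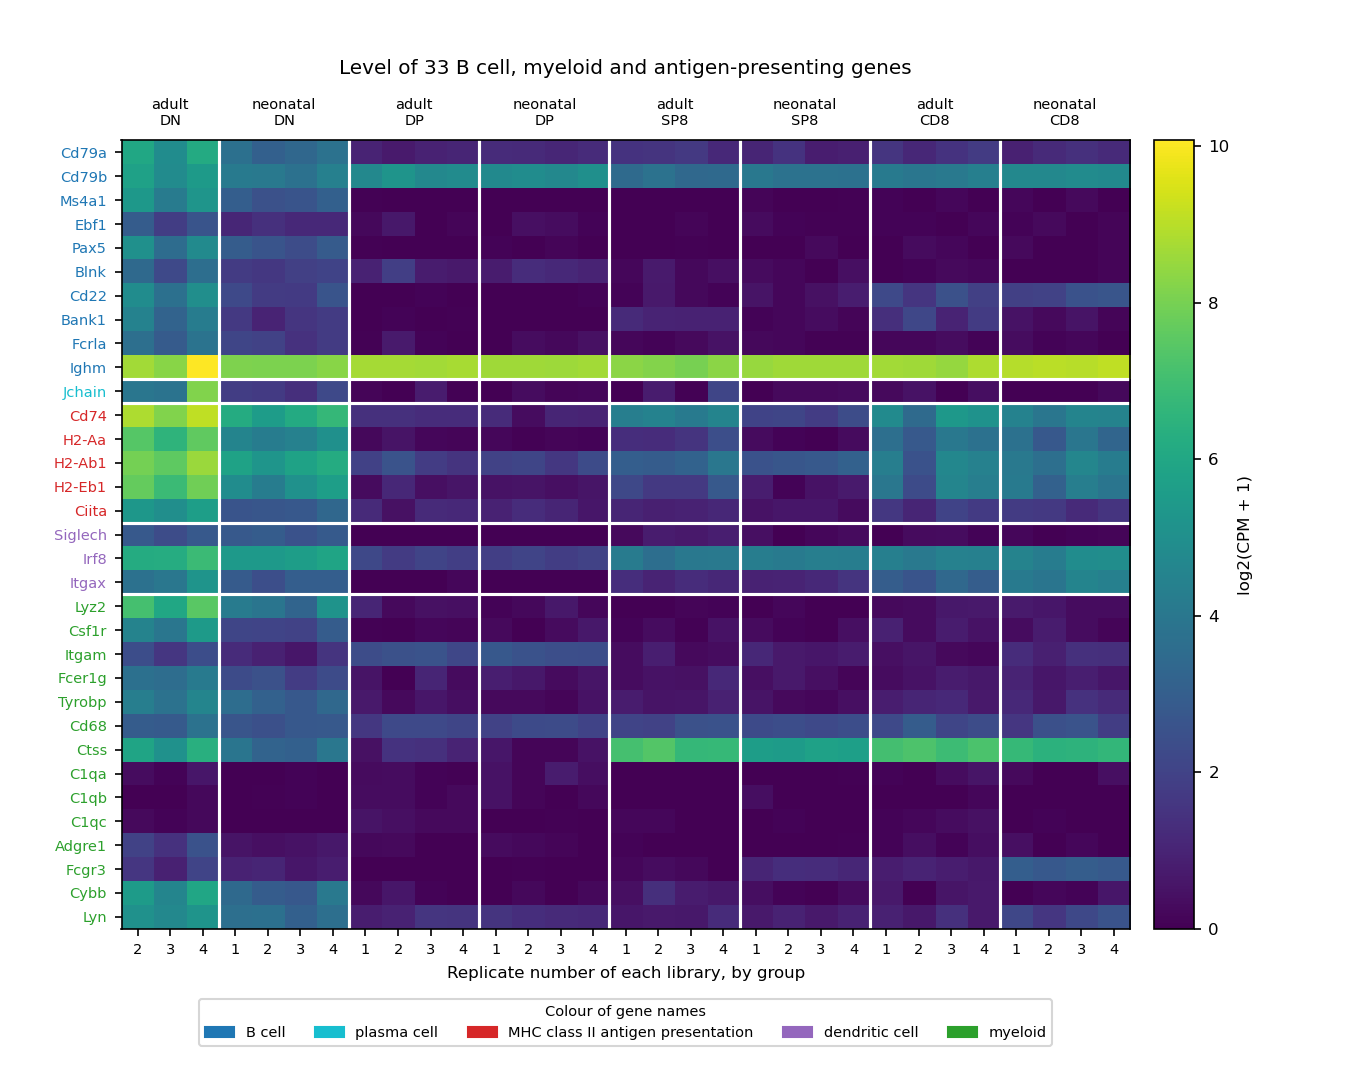
Level of each of the 33 members (rows, coloured by list) in each of the 31 libraries (columns, by group and replicate number), as log2(CPM + 1). The 3 adult DN columns are the brightest for most rows, while Ighm, Cd79b, Irf8 and Cd68 keep a level in all 8 groups and Ctss is bright in SP8 and CD8.

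Between the ages, 29 of the 30 tested members were lower in neonatal than in adult DN and none was higher (edgeR's quasi-likelihood test, adjusted p below 0.05), where 22.8% of all tested genes were called lower. For 29 of the 33 members the neonatal and adult DN libraries did not overlap, against 40.6% of all tested genes. These 29 are not the 29 called: they include C1qc, which was too low for testing, and leave out Fcgr3, which was called. The median log2 fold change of the members was -2.12, and that of all tested genes was -0.08. In these bulk samples, fewer cells of a type, less RNA per cell and another mix of the pooled DN steps cannot be told apart. The member that did not pass the test was Siglech.

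All 10 B cell genes were lower in neonatal DN, with a median log2 fold change of -2.04. Cd79a, which encodes the signalling partner of the B cell receptor (GRCm38, chr7:24897381-24902197), was read at 63.6, 28.9 and 69.9 CPM in adult DN replicates 2, 3 and 4. In neonatal DN replicates 1 to 4 it was read at 12.3, 7.52, 9.34 and 12.96 CPM. All 4 neonatal values lay below the lowest adult value, and the log2 fold change was -2.37 ± 0.22 (SE, adjusted p = 7.22e-11 in edgeR). Its partner Cd79b stood at 54.1, 28.0 and 43.9 CPM in adult DN and at 16.2, 15.9, 12.5 and 20.1 in neonatal DN, again without overlap (log2 fold change -1.37 ± 0.15 SE). Ms4a1, which encodes CD20, was read at 40.2, 17.4 and 37.3 CPM in adult DN. Its neonatal DN values were 7.12, 4.66, 5.08 and 7.44 CPM. Every neonatal library was thus below every adult library, with a log2 fold change of -2.38 ± 0.29 (SE, adjusted p = 8.06e-08 in edgeR).

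The B lineage transcription factors moved the same way. Pax5, which holds cells to the B lineage, was at 32.1, 10.8 and 27.4 CPM in adult DN and at 6.71, 5.19, 4.08 and 6.37 CPM in neonatal DN (log2 fold change -2.07 ± 0.34 SE). Ebf1, which acts upstream of Pax5, was at 6.59, 2.59 and 5.17 CPM in adult DN and at 1.10, 1.67, 1.24 and 1.22 CPM in neonatal DN (log2 fold change -1.86 ± 0.52 SE). Neither gene had overlapping libraries. Exons of Pax5 overlap genes on the opposite strand, and the use of strand in counting is not given in the sources used here, so its count could include theirs. The same holds for Cd22, Ciita, Csf1r and Lyn.

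Receptors and adaptors of B cell signalling followed. Cd22, an inhibitory co-receptor, fell from 28.5, 12.3 and 30.5 CPM in adult DN to 3.65, 2.33, 2.31 and 5.21 CPM in neonatal DN. Bank1, a scaffold protein, fell from 21.3, 8.18 and 17.7 CPM to 2.20, 1.00, 1.95 and 2.34 CPM. These were the 2 B cell members with the largest differences, at log2 fold changes of -2.82 ± 0.34 and -3.07 ± 0.35 (SE). Blnk, the adaptor below the B cell receptor, went from 9.85, 3.65 and 11.6 CPM to 2.37, 2.09, 2.78 and 3.08 CPM. Fcrla, an Fc receptor-like protein of B cells, went from 11.9, 6.36 and 13.2 CPM to 3.36, 3.00, 1.71 and 2.39 CPM. For both the ages did not overlap, although the highest neonatal Blnk value, 3.08 CPM, was close to the lowest adult value, 3.65 CPM.

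**Figure D2:**
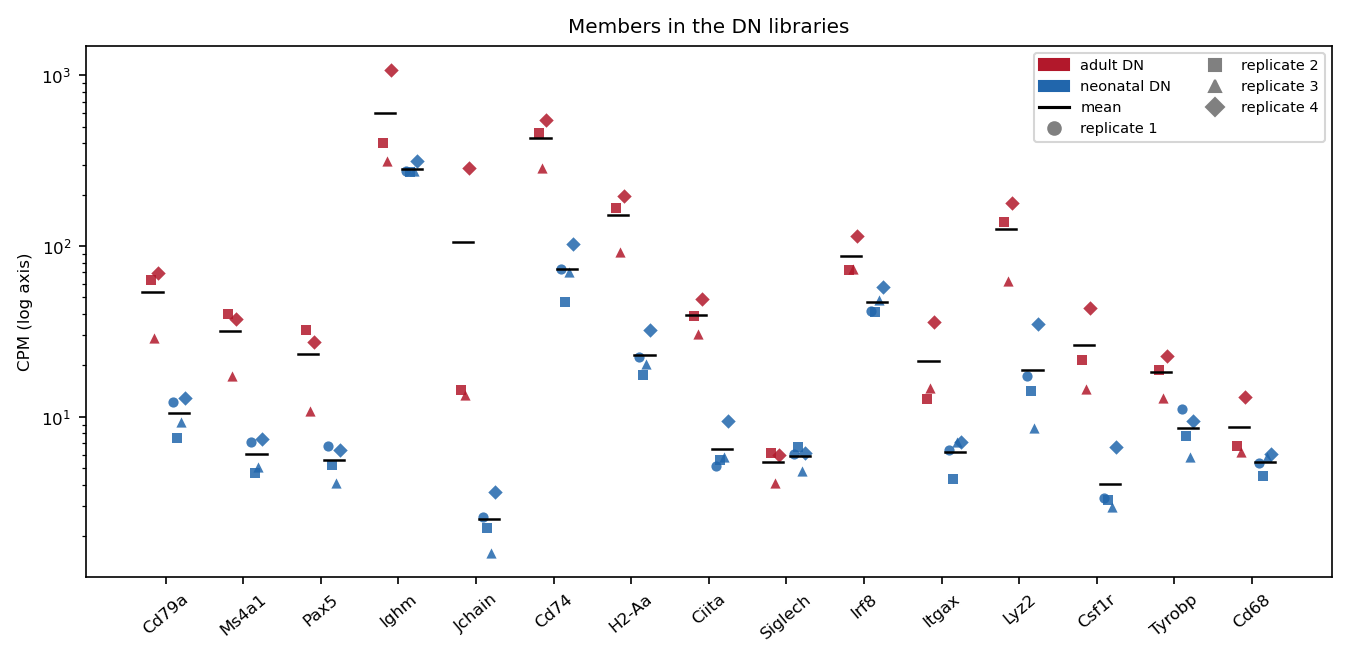
CPM (log axis) of 15 members in the 3 adult and 4 neonatal DN libraries, with a bar at each group mean and a symbol for each replicate number. The adult libraries lie above the neonatal ones except for Siglech, and adult replicate 4 stands far above replicates 2 and 3 for Jchain (288 against 14.3 and 13.5 CPM).

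For the heavy chain gene Ighm and the joining chain gene Jchain the size of the difference depended on 1 library. Both were still called lower in edgeR without it. Ighm, the constant region of IgM, was read at 403.8, 315.1 and 1079 CPM in adult DN and at 275.3, 269.7, 274.0 and 313.4 CPM in neonatal DN. The lowest adult library, replicate 3, and the highest neonatal library, replicate 4, were almost equal. Its log2 fold change of -1.08 ± 0.22 (SE, adjusted p = 0.00032 in edgeR) became -0.34 without adult DN replicate 4, and with only the DN groups in the fit it did not pass the test (adjusted p = 0.126 in edgeR). Transcripts of the unrearranged Ighm constant region are also made by T lineage cells, and Ighm stood between 254.0 and 555.8 CPM in every library of the 6 groups other than DN. Jchain, which joins secreted IgM and IgA and marks plasma cells, was read at 14.3, 13.5 and 288 CPM in adult DN and at 2.60, 2.24, 1.60 and 3.61 CPM in neonatal DN. Adult replicate 4 held 20.1 times the level of replicate 2. The ages still did not overlap, and the log2 fold change of -5.39 ± 0.83 (SE, adjusted p = 1.52e-05 in edgeR) became -2.46 without that library.

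Adult DN replicate 4 stood above both other adult libraries for Jchain and several immunoglobulin and plasma cell genes. Across the 9 B cell members other than Ighm its level was 0.784 to 1.18 times that of replicate 2, with a median of 0.927, and 1.57 to 3.18 times that of replicate 3, with a median of 2.16. Its level of Jchain was 21.4 times that of replicate 3. The light chain constant gene Igkc was at 113.7, 60.7 and 1205 CPM in adult DN replicates 2, 3 and 4, and Iglc1 was at 4.06, 1.06 and 53.5 CPM. Not all immunoglobulin genes did so: Ighd was highest in replicate 2, at 35.7, 8.07 and 21.5 CPM. Iglc2 differed less from replicate 2, at 10.7, 3.89 and 16.95 CPM. Ighd and Iglc2 were named after their values were seen. From the list of other plasma cell genes, Derl3, a protein of endoplasmic reticulum quality control, was at 0.73, 1.06 and 11.9 CPM, and Igha, the IgA constant region, was at 25.2, 54.4 and 111.4 CPM. Mzb1, a plasma cell chaperone, and Sdc1, which encodes CD138, were picked after their values were seen, and they stood at 1.06, 0.71 and 7.58 CPM and at 4.33, 5.83 and 19.9 CPM. The remaining plasma cell genes differed less from replicate 2, with ratios of 1.83 for Xbp1, 1.65 for Prdm1, 1.44 for Tnfrsf17 and 2.22 for Irf4. Constant region genes resemble one another, and reads they share may have been divided or dropped in counting.

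**Figure D3:**
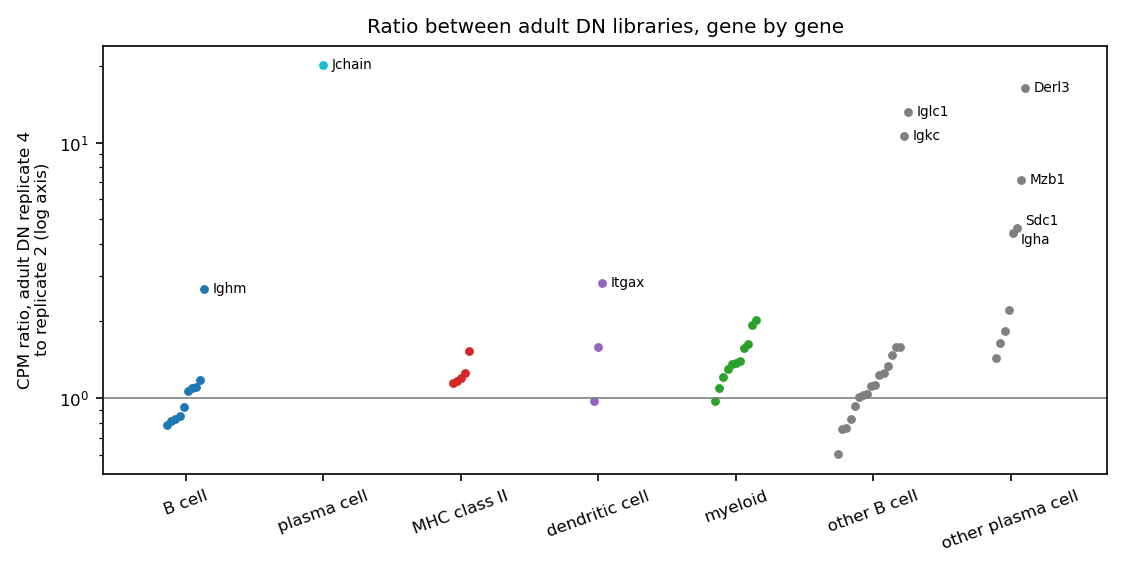
Ratio of the CPM in adult DN replicate 4 to that in replicate 2 (log axis), 1 point per gene, for the 5 member lists and for the lists of other B cell and other plasma cell genes. B cell members cluster near 1, with a median of 0.927 without Ighm, while Jchain reaches 20.1 and Derl3, Iglc1 and Igkc also stand above 10.

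The MHC class II genes were high in adult DN and lower in neonatal DN for all 5 members, with a median log2 fold change of -2.55. The classical class II molecules are pairs of an alpha and a beta chain, and they are assembled on the invariant chain encoded by Cd74. H2-Aa, the I-A alpha chain (GRCm38, chr17:34282744-34287823), was at 168, 92.8 and 197.1 CPM in adult DN and at 22.4, 17.6, 20.4 and 32.1 CPM in neonatal DN. H2-Ab1, the I-A beta chain (chr17:34257689-34269419), was at 247.8, 187.6 and 379.6 CPM and at 54.9, 37.4, 55.3 and 72.7 CPM in the same libraries. H2-Eb1, the I-E beta chain (chr17:34305867-34316674), was at 204, 115.6 and 234.7 CPM and at 29.1, 17.8, 33.03 and 48.8 CPM. The lowest adult library was above the highest neonatal library for each of these 3 chains, and their log2 fold changes were -2.72 ± 0.29, -2.30 ± 0.34 and -2.52 ± 0.38 (SE). Cd74 was at 456.7, 285.8 and 547.4 CPM in adult DN and at 73.1, 46.8, 70.7 and 103.4 CPM in neonatal DN (log2 fold change -2.55 ± 0.29 SE, adjusted p = 2e-07 in edgeR).

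Ciita, the coactivator that the class II promoters depend on, changed by a like amount. It was read at 38.9, 30.6 and 48.6 CPM in adult DN and at 5.15, 5.57, 5.85 and 9.40 CPM in neonatal DN, without overlap. Its log2 fold change was -2.60 ± 0.25 (SE, adjusted p = 1.01e-10 in edgeR). CIITA acts through factors bound at conserved elements near the start of class II genes, among them the Y box, which NF-Y binds. Whether Ciita took part in the age difference of the class II genes was not tested. The 250 bases before the RefSeq start (GRCm38.p6) are shown for the 2 class II genes with a match to the Y box core. They read 5′ to 3′ on the gene's strand, with the core in capitals (GATTGG, or CCAATC on the other strand).
H2-Aa, minus strand, chr17:34287824-34288073: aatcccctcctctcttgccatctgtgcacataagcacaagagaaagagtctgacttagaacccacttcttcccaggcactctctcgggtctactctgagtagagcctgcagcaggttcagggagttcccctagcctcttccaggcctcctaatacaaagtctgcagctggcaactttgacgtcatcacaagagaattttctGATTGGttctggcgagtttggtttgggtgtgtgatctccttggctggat
H2-Eb1, plus strand, chr17:34305617-34305866: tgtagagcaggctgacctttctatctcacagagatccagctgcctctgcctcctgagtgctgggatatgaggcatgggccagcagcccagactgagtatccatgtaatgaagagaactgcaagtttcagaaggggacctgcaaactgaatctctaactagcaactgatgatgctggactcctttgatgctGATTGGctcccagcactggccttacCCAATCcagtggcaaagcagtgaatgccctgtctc

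The core began 49 bases before the start of H2-Aa, and its 2 copies began 60 and 35 bases before the start of H2-Eb1. The same letters on either strand were present in 14.56% of 32851 promoter windows of this length, so a match is common and describes the sequence only. Of the 33 members, 22 were matched in the promoter table, and 5 of them held the Y box core (Fcrla, Irf8, Cd68, H2-Aa and H2-Eb1). The members outside these 22 were not searched, and any further window of a gene was not read. A class II gene not named here is thus not shown to lack the core. A core bound by PU.1, a myeloid and B cell factor (GAGGAA or TTCCTC), was in 8 of the 22 windows and in 23.253% of all windows. A core bound by EBF1 (CCCNNGGG, the same on both strands) was in 4 of the 22 and in 11.817% of all windows. None of the 3 cores contains another.

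Of the 3 dendritic cell members, 1 differed from the rest. Siglech, a receptor of plasmacytoid dendritic cells, was at 6.12, 4.12 and 5.97 CPM in adult DN and at 6.08, 6.61, 4.79 and 6.16 CPM in neonatal DN. The ages overlapped, and the log2 fold change was 0.13 ± 0.37 (SE, adjusted p = 0.828 in edgeR). Irf8, a transcription factor of dendritic cells that B cells and monocytes also express, was at 72.3, 73.8 and 115 CPM in adult DN and at 41.4, 41.3, 48.2 and 57.8 CPM in neonatal DN (log2 fold change -0.89 ± 0.15 SE). Itgax, which encodes CD11c, was at 12.7, 14.8 and 35.8 CPM in adult DN and at 6.36, 4.33, 7.09 and 7.12 CPM in neonatal DN (log2 fold change -1.78 ± 0.27 SE). Neither Irf8 nor Itgax overlapped between the ages. Adult replicate 4 held the highest value for both, and without that library both were still called, Itgax with a log2 fold change of -1.15.

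Among the 14 myeloid members, all 11 tested genes were lower in neonatal DN, with a median log2 fold change of -1.84. Lyz2, the lysozyme of macrophages, monocytes and neutrophils, was at 137.8, 62.6 and 179.4 CPM in adult DN and at 17.2, 14.1, 8.57 and 35.1 CPM in neonatal DN. Its highest neonatal library, replicate 4, held 4.09 times the level of the lowest, replicate 3, and all 4 stayed below the adult libraries (log2 fold change -2.75 ± 0.34 SE, adjusted p = 4.61e-07 in edgeR). Csf1r, the receptor for the macrophage growth factor, was at 21.5, 14.6 and 43.4 CPM in adult DN and at 3.36, 3.24, 2.96 and 6.69 CPM in neonatal DN (log2 fold change -2.71 ± 0.40 SE). Adgre1, which encodes the macrophage marker F4/80, was low throughout, at 2.93, 1.71 and 4.78 CPM in adult DN and 0.46, 0.33, 0.41 and 0.58 CPM in neonatal DN (log2 fold change -2.80 ± 0.61 SE). Both genes were without overlap.

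Lysosomal and oxidase genes of phagocytes were likewise lower. Ctss, the protease that trims the invariant chain, was at 58.3, 33.6 and 81.5 CPM in adult DN and at 14.1, 8.33, 7.51 and 15.1 CPM in neonatal DN (log2 fold change -2.37 ± 0.26 SE). Cybb, a subunit of the phagocyte oxidase, was at 44.9, 23.3 and 61.4 CPM and at 9.90, 6.71, 5.91 and 15.9 CPM (log2 fold change -2.17 ± 0.40 SE). Cd68, a lysosomal glycoprotein, was at 6.72, 6.24 and 13.1 CPM in adult DN and at 5.38, 4.47, 5.79 and 6.06 CPM in neonatal DN. Its log2 fold change was the smallest of the 29 called, -0.69 ± 0.26 (SE, adjusted p = 0.0355 in edgeR), and without adult DN replicate 4 it was -0.26 (adjusted p = 0.553 in edgeR). The call was also lost without neonatal DN replicate 1 or 2. Relative log expression scaling, the replicate number as a block and DESeq2 each lost it as well.

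The other 5 tested myeloid members encode further Fc receptor chains, an adaptor, a kinase and an integrin. Fcer1g, the common Fc receptor gamma chain, was at 12.3, 11.01 and 16.8 CPM in adult DN and at 3.94, 4.62, 2.48 and 3.88 CPM in neonatal DN (log2 fold change -1.84 ± 0.38 SE). Tyrobp, the adaptor DAP12, which NK cells also use, was at 18.8, 12.95 and 22.8 CPM and at 11.1, 7.76, 5.85 and 9.51 CPM (log2 fold change -1.09 ± 0.26 SE). Lyn, a kinase of B cells and myeloid cells, was at 33.1, 24.7 and 36.4 CPM and at 11.8, 12.1, 7.45 and 11.7 CPM (log2 fold change -1.54 ± 0.24 SE). None of these 3 overlapped between the ages. Itgam, which encodes CD11b, was at 4.26, 2.002 and 4.17 CPM in adult DN and at 1.39, 0.90, 0.53 and 1.86 CPM in neonatal DN (log2 fold change -1.57 ± 0.35 SE), with the highest neonatal library just under the lowest adult library. Fcgr3, an Fc receptor for IgG, was at 1.997, 0.88 and 3.14 CPM in adult DN and at 0.93, 1.05, 0.53 and 0.74 CPM in neonatal DN, with overlap. Its log2 fold change of -1.31 ± 0.38 (SE, adjusted p = 0.00738 in edgeR) became -0.80 without adult DN replicate 4 (adjusted p = 0.18 in edgeR).

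The complement genes of tissue macrophages stayed near 0. In adult DN C1qa was at 0.27, 0.06 and 0.54 CPM, C1qb was at 0, 0 and 0.15 CPM and C1qc was at 0.20, 0.06 and 0.15 CPM. All 3 genes were at the floor in neonatal DN, where every library held 3 counts or fewer.

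Summed over a list, the adult and neonatal DN libraries did not overlap for the B cell, class II, dendritic or myeloid genes. The 5 class II genes summed to 712.3 to 1407 CPM in adult DN and to 125.1 to 266.4 CPM in neonatal DN. The 3 dendritic cell genes summed to 91.1 to 156.8 CPM and to 52.3 to 71.1 CPM, and the 14 myeloid genes to 193.8 to 467.7 CPM and to 48.1 to 107.2 CPM. The 10 B cell genes summed to 433.3 to 1335 CPM and to 313.0 to 374.5 CPM, and without Ighm to 118.2 to 268.1 CPM and to 41.0 to 61.1 CPM.

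Within each age most members were highest in the same DN library. Adult DN replicate 4 held the highest value for 23 of the 30 tested members and replicate 2 for the other 7, while replicate 3 held the lowest for 28 and replicate 2 for Irf8 and Itgax. Neonatal DN replicate 4 held the highest value for 22, and the lowest lay in replicate 3 for 15 and in replicate 2 for 13. Without adult DN replicate 4 the median log2 fold change of the members was -1.88 and 27 were called lower, and without replicate 3 it was -2.44 and 29 were called lower. Per kilobase of exon, Cd74 averaged 256.1 ± 79.1 CPM (SD, n = 3) in adult DN and 43.8 ± 13.8 (SD, n = 4) in neonatal DN, Lyz2 averaged 96.2 ± 45.0 and 14.3 ± 8.70, and Cd79a averaged 37.2 ± 15.2 and 7.22 ± 1.75.

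Further genes used as markers of the same cell types were read from lists outside the 33 members. Their counts are set against 22.8% of all tested genes called lower and 13.1% called higher in neonatal DN. Of 17 tested other B cell genes, 14 were lower in neonatal DN and none was higher, and the genes with the largest differences were Igkc (log2 fold change -4.78, and -2.38 without adult DN replicate 4), Cr2, the complement receptor CD21 (-4.17), and Iglc1 (-4.16, and -1.22 with adjusted p = 0.215 in edgeR without that library; adjusted p = 0.209 in DESeq2). Of 7 other plasma cell genes, 6 were lower, with Igha at -3.09 (adjusted p = 0.101 in DESeq2), Derl3 at -3.04 (-0.67 with adjusted p = 0.44 in edgeR without that library) and Irf4 at -2.01. Of 15 other class II pathway genes, 12 were lower, among them H2-Ob, a chain of the peptide-loading modulator H2-O (-2.72), the costimulatory receptor Cd40 (-2.61) and H2-Eb2 (-2.61). Of 12 other plasmacytoid dendritic cell genes, 10 were lower, with the nucleic acid sensors Tlr9 at -1.79 and Tlr7 at -1.65 and the factor Runx2 at -1.60. Of 12 conventional dendritic cell genes, 10 were lower, among them Cd209a at -3.87, Clec9a, a receptor for dead cells, at -2.46 (adjusted p = 0.0852 in edgeR without that library) and Zbtb46 at -2.16. Summed, the plasmacytoid list averaged 1592 CPM in adult DP against 664.4 in adult DN. Without its gene of highest mean level these averages were 388.9 and 590.4 CPM. The conventional list averaged 902.4 CPM in adult SP8, 705.8 in adult CD8 and 310.1 in adult DN. Without its gene of highest mean level these were 543.3, 219.0 and 302.4 CPM. Of 14 tested macrophage and monocyte genes, 11 were lower, with the scavenger receptor Cd163 at -3.51 and Ly6c2 at -2.65. Summed, the macrophage and monocyte list averaged 356.5 CPM in adult DN and 332.0 in adult CD8. Without its gene of highest mean level these averages were 295.6 and 42.0 CPM. Some genes of these lists thus have levels in the T cell sorts too. The part of T lineage transcripts in the DN differences of these lists was not tested.

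Other cell types that a DN sort can hold did not all move in the same direction, and their counts are set against the same 22.8% lower and 13.1% higher. Of 17 NK and innate lymphoid genes, 13 were lower in neonatal DN and 1 was higher, with Klre1 at -4.54, Klrb1c, which encodes NK1.1, at -4.07, and Klra8 at least 9.90-fold lower, since it was at the floor in neonatal DN. Of 8 tested granulocyte genes, 1 was higher and 2 were lower: Ngp, a neutrophil granule protein, had a log2 fold change of 1.93, Csf3r one of -2.02 and Cpa3, a mast cell protease, one of -1.70. The Ngp call was lost without neonatal DN replicate 4 (log2 fold change 1.15, adjusted p = 0.114 in edgeR), and the Csf3r call without adult DN replicate 4 (adjusted p = 0.0876 in edgeR). In DESeq2 Ngp was not called either (adjusted p = 0.0853). Of 9 gamma-delta T cell genes, 3 were higher and 4 were lower, with Il17a at 3.99 (4.36 with adjusted p = 0.321 in DESeq2), Tcrg-C4 at -2.49 and Tcrg-C2 at -1.64. Of 18 T lineage genes, 5 were higher and 7 were lower, and among them Cd8a had a log2 fold change of 2.23, Trac one of -1.68 and Il2ra, which marks the DN2 and DN3 steps, one of -1.57. The T lineage genes summed to 6135 CPM in the lowest adult DN library and to 6343 CPM in the lowest neonatal one, with means of 6551 ± 374.6 (SD, n = 3) and 6526 ± 156.6 (SD, n = 4). Without the T lineage gene of highest mean level they summed to 4420 to 4991 CPM in adult DN and to 3925 to 4168 CPM in neonatal DN, without overlap. Of 11 progenitor genes, 6 were lower and 1 was higher, with Lmo2 at -2.45, Flt3 at -1.38 and Mef2c at -1.28. Of 8 tested thymic stroma genes 4 were lower, with Cdh1 at -2.02, Cdh5 at -1.65 and Epcam at -0.91. Of 6 tested erythroid genes, 1 was higher, the erythropoietin receptor gene Epor (1.87), whose call was lost without adult DN replicate 2 or 4 or neonatal DN replicate 1. The part of any of these cell types in the differences of the members was not tested.

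**Figure D4:**
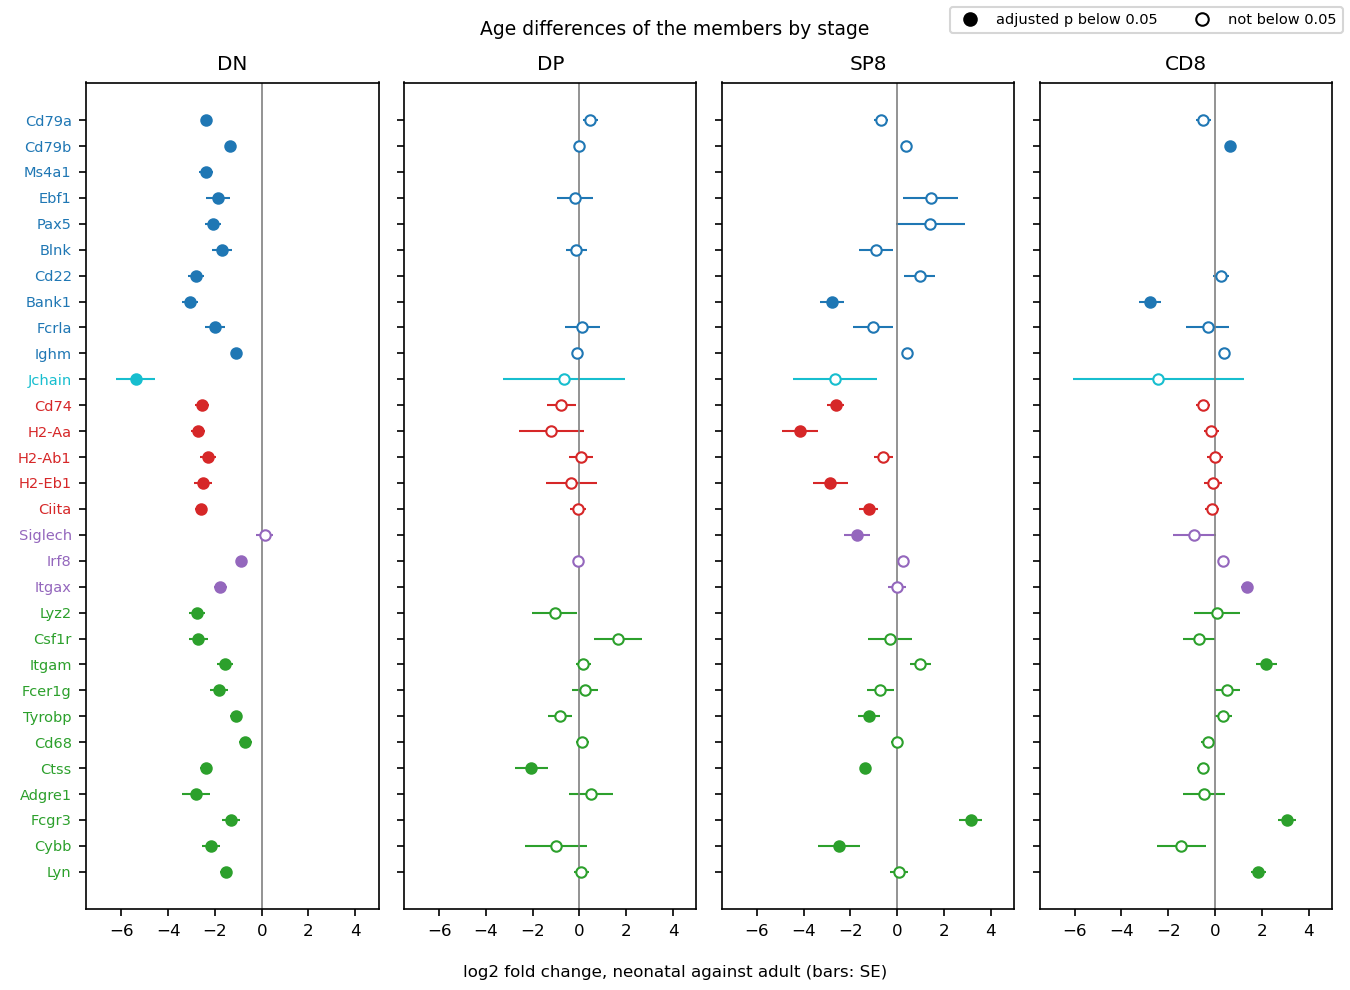
Log2 fold change of neonatal against adult libraries, with its SE, for the 30 tested members in DN, DP, SP8 and CD8 cells. Filled points passed the adjusted p threshold of 0.05, and members at the floor in both groups are left out. In DN all but Siglech lie left of 0 and are filled, while DP holds 1 filled point (Ctss).

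In DP thymocytes almost none of the members differed between the ages. Of the 30 tested, 1 was called lower in neonatal DP, Ctss, and none was higher, where 8.74% of all tested genes were lower. Ctss stood at 0.39, 1.79, 1.65 and 0.99 CPM in adult DP and at 0.54, 0.10, 0.11 and 0.41 CPM in neonatal DP, with overlap (log2 fold change -2.06 ± 0.70 SE, adjusted p = 0.0415 in edgeR), and the call was lost when any of 6 of the 8 DP libraries was left out. Lineage-restricted members were at or near 0 in DP cells: 9 members were at the floor in adult DP and 10 in neonatal DP. Ms4a1 reached 0.06 CPM in 1 adult DP library and was 0 in the other 7. Siglech was 0 in all 8 DP libraries. The members that kept a mean of at least 1 CPM in both DP groups were Blnk, Cd68, Cd79b, H2-Ab1, Ighm, Irf8, Itgam and Lyn.

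Set against DP of the same age, 29 of 30 tested members were higher in adult DN and none was lower, where 37.9% of all tested genes were higher. In neonates 27 were higher and 3 were lower, where 37.1% and 37.9% of all tested genes were. Cd79a exceeded its DP level by a log2 fold change of 5.86 ± 0.28 (SE) in adults and 3.02 ± 0.26 in neonates, Cd74 by 8.13 ± 0.41 and 6.35 ± 0.42, and Lyz2 by 7.98 ± 0.50 and 6.30 ± 0.56. Against DP groups at the floor, Ms4a1 was at least 184-fold higher in adult DN and at least 36.8-fold higher in neonatal DN, and Siglech was at least 31.4-fold and 35.8-fold higher. The 3 members lower in neonatal DN than in neonatal DP were Cd79b (log2 fold change -0.79 ± 0.15 SE), Ighm (-0.49 ± 0.20) and Itgam (-2.03 ± 0.33). The Ighm call was lost when any of 5 of the 8 libraries was left out, neonatal DN replicate 1, 2 or 3 or neonatal DP replicate 2 or 4 (adjusted p = 0.0589 to 0.0752 in edgeR).

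These 3 genes had a level of their own in DP cells. Cd79b was at 25.4, 35.7, 24.8 and 28.4 CPM in adult DP and at 26.7, 28.6, 25.3 and 31.2 CPM in neonatal DP, above all neonatal DN libraries. Itgam was at 4.03, 4.72, 5.01 and 3.39 CPM in adult DP and at 5.90, 4.76, 4.33 and 4.27 CPM in neonatal DP, and adult DN lay within that range or below it (log2 fold change of adult DN against DP -0.29 ± 0.33 SE, adjusted p = 0.441 in edgeR). Exons of Itgam overlap another annotated gene on the same strand. Ighm was at 412.5 to 432.0 CPM in adult DP and at 383.2 to 409.8 CPM in neonatal DP. It was called higher in adult DN than in adult DP (log2 fold change 0.50 ± 0.22 SE, adjusted p = 0.0447 in edgeR). That call was lost under 9 alternatives and kept under 3. It was lost with the replicate number as a block (0.37, adjusted p = 0.102 in edgeR), under both other scalings, with only the groups compared, in DESeq2 and without any 1 adult DP library. Without adult DN replicate 4 the log2 fold change turned to -0.23 (adjusted p = 0.0364 in edgeR).

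The age difference in DN was tested against that in DP directly. For 11 of the 30 tested members it was more negative in DN and for none was it more positive, where 12.3% of all tested genes were more negative. They were Cd79a (difference of log2 fold changes -2.83 ± 0.40 SE), Cd79b (-1.34 ± 0.21), Ighm (-0.99 ± 0.30), H2-Ab1 (-2.36 ± 0.61), Ciita (-2.53 ± 0.42), Irf8 (-0.83 ± 0.27), Csf1r (-4.34 ± 1.10), Itgam (-1.74 ± 0.47), Fcer1g (-2.08 ± 0.68), Adgre1 (-3.28 ± 1.15) and Lyn (-1.62 ± 0.40). Without adult DN replicate 4 the number was 7, with Ighm, Irf8, Fcer1g and Adgre1 no longer called. Adgre1 lost the call when any of 10 libraries was left out, Fcer1g for any of 6, Irf8 for any of 4, and Csf1r without neonatal DP replicate 4. Many other members, such as Ms4a1 and Cd22, were at the floor in both DP groups, where this difference has little precision.

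**Figure D5:**
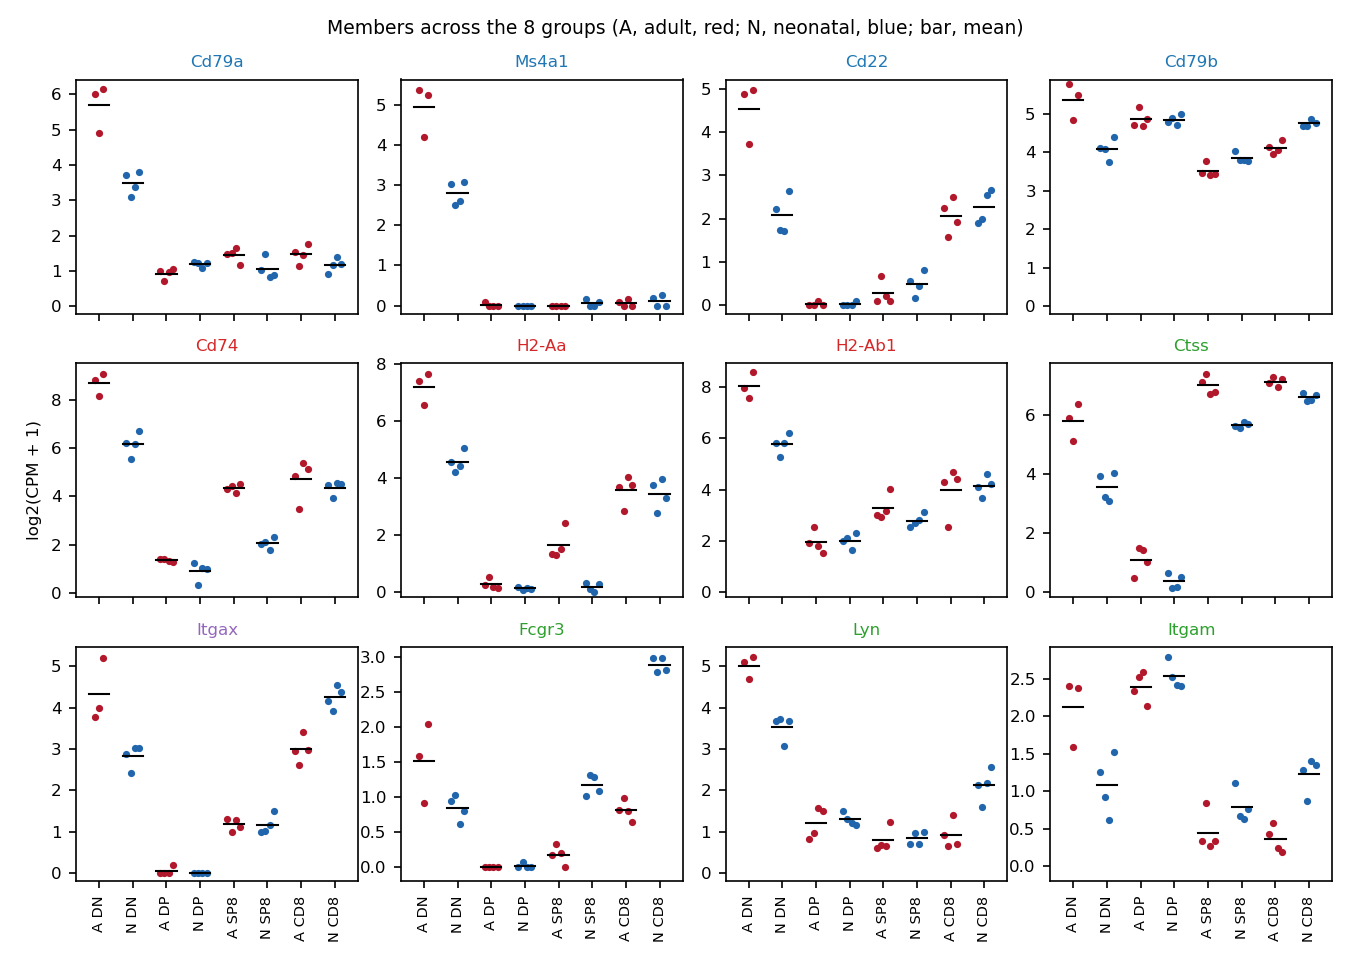
log2(CPM + 1) of 12 members in each library of the 8 groups, adult in red and neonatal in blue, with a bar at the mean of each group. Cd79a and Ms4a1 are high in DN, the class II genes shown are low in DP and higher in splenic CD8, and Ctss, Itgax, Fcgr3 and Lyn have levels in SP8 or CD8 that do not follow the DN pattern.

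In SP8 thymocytes the class II genes were lower in neonates. Of the 30 tested members 9 were lower in neonatal SP8 and 1 was higher, where 20.8% of all tested genes were called in each direction. The ages did not overlap for 10 of the 33 members, untested ones included, against 37.7% of all tested genes. Cd74 was at 18.8, 20.8, 16.7 and 22.2 CPM in adult SP8 and at 3.05, 3.28, 2.45 and 4.01 CPM in neonatal SP8 (log2 fold change -2.62 ± 0.36 SE, adjusted p = 2.51e-06 in edgeR). H2-Aa was at 1.49, 1.45, 1.83 and 4.30 CPM in adult SP8 and at 0.23, 0.06, 0 and 0.22 CPM in neonatal SP8 (log2 fold change -4.14 ± 0.76 SE), and adult replicate 4 stood apart from the other 3. H2-Eb1 was at 3.57, 2.17, 2.15 and 6.06 CPM and at 0.75, 0.06, 0.41 and 0.65 CPM (log2 fold change -2.86 ± 0.74 SE). Ciita was lower as well (-1.21 ± 0.41), and none of these 4 genes overlapped between the ages, while H2-Ab1 was not called. Adult SP8 replicate 4 also held 3.26 CPM of Jchain, which was at 0, 0.72 and 0.05 CPM in replicates 1 to 3.

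Outside the class II genes, Ctss showed its strongest levels in SP8 and splenic CD8 cells. It was at 138.4, 165.6, 102.9 and 107.6 CPM in adult SP8 and at 48.3, 45.6, 52.8 and 50.6 CPM in neonatal SP8, without overlap (log2 fold change -1.38 ± 0.23 SE, adjusted p = 2.01e-05 in edgeR). In splenic CD8 it was at 133.2, 152.9, 120.7 and 148.0 CPM in adults and at 105.8, 88.0, 89.3 and 100.2 CPM in neonates, where the difference was not called (adjusted p = 0.0674 in edgeR). The adult SP8 and CD8 libraries thus held more Ctss than any DN library. The other members lower in neonatal SP8 were Bank1 (-2.79 ± 0.53 SE), Siglech (-1.70 ± 0.56), Tyrobp (-1.21 ± 0.46) and Cybb (-2.49 ± 0.88), all with group means near or below 1 CPM. Of these, Siglech, Tyrobp and Cybb, and Ciita among the class II genes, lost the call when certain SP8 libraries were left out: Siglech without neonatal replicate 2, Tyrobp without neonatal replicate 2 or 3 or adult replicate 1 or 4, Cybb without neonatal replicate 2 or 3 or adult replicate 2, and Ciita without neonatal replicate 4. Siglech, Tyrobp and Cybb were too low for testing with only the SP8 groups in the fit. Fcgr3 was the member that was higher in neonatal SP8, at 1.03, 1.49, 1.45 and 1.14 CPM against 0.13, 0.26, 0.16 and 0 CPM in adults (log2 fold change 3.15 ± 0.49 SE).

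In splenic CD8 cells 5 members were higher in neonates and 1 was lower, where 18.9% and 13.2% of all tested genes were. The ages did not overlap for 9 of the 33 members, untested ones included, against 29.6% of all tested genes. Fcgr3 was at 6.98, 5.91, 6.93 and 6.06 CPM in neonatal CD8 and at 0.76, 0.98, 0.75 and 0.56 CPM in adult CD8 (log2 fold change 3.07 ± 0.37 SE, adjusted p = 7.64e-08 in edgeR). Itgax was at 16.9, 14.2, 22.3 and 19.7 CPM in neonates and at 6.74, 5.14, 9.63 and 6.87 CPM in adults (log2 fold change 1.36 ± 0.26 SE). Lyn was at 3.39, 2.03, 3.50 and 4.95 CPM against 0.89, 0.56, 1.63 and 0.63 CPM (log2 fold change 1.85 ± 0.33 SE). All 3 had neonatal libraries above every adult library. Itgam (2.20 ± 0.45) and Cd79b (0.66 ± 0.15) were also higher in neonatal CD8, and Bank1 was lower (-2.79 ± 0.47). Fcgr3 has close relatives in the same receptor family, whose reads may have been shared with it in counting.

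The 10 B cell members were not alike in the splenic CD8 libraries. Ms4a1, Ebf1, Pax5, Blnk and Fcrla averaged 0.15 CPM or less in both CD8 groups. Cd79a averaged 1.81 ± 0.49 CPM (SD, n = 4) in adult CD8 and 1.27 ± 0.31 in neonatal CD8, Cd79b 16.6 ± 1.98 and 26.1 ± 1.51, Bank1 2.09 ± 1.03 and 0.29 ± 0.18, and Ighm 404.9 ± 36.95 and 522.7 ± 24.4. Cd22 stood at 3.72, 1.97, 4.63 and 2.80 CPM in adult CD8 and at 2.71, 2.99, 4.89 and 5.38 CPM in neonatal CD8. Against SP8 it was higher by a log2 fold change of 3.89 ± 0.51 (SE) in adults and 3.19 ± 0.44 in neonates. Lyz2 did not exceed 0.68 CPM in any CD8 library.

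Against SP8 cells of the same age, splenic CD8 cells were higher for 10 members and lower for 1 (Siglech) in adults, where 17.7% and 27.3% of all tested genes were. In neonates 13 were higher and none was lower, where 27.4% of all tested genes were higher. The class II genes accounted for 4 of the 10, all but Cd74, and 5 of the 13. In adults the call of H2-Ab1 (log2 fold change 0.91 ± 0.37 SE, adjusted p = 0.0486 in edgeR) was lost under total-count scaling, with only the groups compared (adjusted p = 0.136 in edgeR), and without adult SP8 replicate 1, 2 or 3 or adult CD8 replicate 1, 3 or 4. H2-Aa was at 11.9, 6.12, 15.4 and 12.6 CPM in adult CD8 and at 12.4, 5.78, 14.5 and 8.88 CPM in neonatal CD8, which was above SP8 by a log2 fold change of 2.35 ± 0.37 (SE) in adults and 6.35 ± 0.60 in neonates. H2-Eb1 was at 15.1, 3.87, 22.8 and 18.7 CPM in adult CD8 and at 16.5, 7.82, 18.8 and 14.1 CPM in neonatal CD8. Adult CD8 replicate 2 held the lowest adult value of both genes, and neonatal CD8 replicate 2 the lowest neonatal value. With the replicate number as a block the neonatal count was 16, with Blnk called lower and Itgam and Lyz2 called higher in addition.

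A direct test of the age difference in CD8 against that in SP8 was passed by 5 members, all with a more positive difference in CD8, where 10.2% of all tested genes were more positive. They were Cd74 (difference of log2 fold changes 2.12 ± 0.47 SE), H2-Aa (3.99 ± 0.85), H2-Eb1 (2.77 ± 0.86), Itgax (1.36 ± 0.46) and Lyn (1.79 ± 0.52). The 3 class II genes were lower in neonatal than in adult SP8 and did not pass the age test in CD8, while Itgax and Lyn were higher in neonatal CD8 and did not pass it in SP8. Without adult SP8 replicate 4 the number was 2, Cd74 and H2-Aa. Itgax lost the call when any of 8 libraries was left out and H2-Eb1 for any of 4.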

How the data were processed

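Per the labels' protocols, sorted cells were lysed in Trizol and libraries carried TruSeq barcodes after poly(A) selection. The authors deposited raw counts of reads per Ensembl gene, 1 column per library, with replicates kept separate. Per the submitters' processing notes, Trim Galore and STAR 2.7.10a were used with the mm10 build, while the counting tool, its use of strand and the annotation are not given in the sources used here. Symbols, positions and exon lengths came from GENCODE (GRCm38, the same assembly as mm10), which named 52093 of 53700 identifiers.

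Groups and replicate numbers came from sample titles. Genes passing filterByExpr (minimum count 10, minimum total 15) entered 1 edgeR 4.0.16 fit (R 4.3.3) over the 8 groups, with TMM scaling and robust quasi-likelihood tests. P-values were adjusted by Benjamini-Hochberg over the 16461 tested genes within each comparison and called below 0.05. Log2 fold changes are edgeR estimates, and SE was derived from the log2 fold change and F. A group was at the floor where all its libraries held 3 counts or fewer, and folds against it are lower bounds computed from 3 counts in each library. Promoter windows came from RefSeq. An edgeR fit of the DN groups alone was tested on simulated data that gave both ages the same spread. The fit over the 8 groups was not tested in this way.

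Every member is named. Values per library are given for up to 5 members of each list with the highest group means and for all members called in DN without overlap. From each other list, up to 3 genes called in DN with the largest change and a mean of at least 1 CPM in the higher group are named. A gene that this rule would name is not reported here. Members and lists were chosen with earlier results of these data known.

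Same-numbered libraries deviated together, with every correlation above 0.1, for DN against DP in adults (lowest 0.11) and CD8 against SP8 in neonates (lowest 0.10), so blocked values stand beside those results where a call changed. For neonatal against adult DN the correlations were 0.096 to 0.17, and in all 3 pairs the own number correlated best. The same held in all 4 pairs for neonatal DN against DP (lowest 0.079) and adult CD8 against SP8 (lowest 0.081). What same-numbered libraries share was not tested. Alternatives were relative log expression and total-count scaling, no filter, only the groups compared, the replicate block, leaving out each library, and DESeq2 1.42.0.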

Additional observations from a re-analysis of the deposited data

Results flagged for a closer look

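Among 103 pairs of a member and a group of 4 libraries with a mean of at least 1 CPM, 12 had a library set apart from the other 3 by Dixon's criterion, where chance gives about 1 in 20. In neonatal DN, replicate 4 stood apart as the highest library for Ighm (313.4 CPM), Ciita (9.40 CPM) and Csf1r (6.69 CPM), and replicate 3 as the lowest for Lyn (7.45 CPM). In adult SP8, replicate 4 stood apart as the highest for H2-Aa (4.30 CPM) and H2-Ab1 (15.1 CPM), replicate 2 as the highest for Cd79b (12.8 CPM) and replicate 1 as the highest for Bank1 (1.30 CPM). In adult DP, replicate 2 was the highest for Blnk (2.68 CPM) and the lowest for Ciita (0.38 CPM). In neonatal SP8, replicate 1 was the lowest for Ighm (370.4 CPM), and in neonatal CD8, replicate 2 was the lowest for Cd74 (14.4 CPM).

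Members whose age difference differed between 2 stages in a direct test are listed with the difference of the log2 fold changes. In DN minus DP these were Cd79a (-2.83), Cd79b (-1.34), Ighm (-0.99), H2-Ab1 (-2.36), Ciita (-2.53), Irf8 (-0.83), Csf1r (-4.34), Itgam (-1.74), Fcer1g (-2.08), Adgre1 (-3.28) and Lyn (-1.62). In CD8 minus SP8 these were Cd74 (2.12), H2-Aa (3.99), H2-Eb1 (2.77), Itgax (1.36) and Lyn (1.79).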

How the results depend on the processing

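Of 140 fold changes of named genes, 131 had an adjusted p under every alternative, and 103 of these kept their direction and their side of the threshold throughout. Over 1991 alternative fits with an adjusted p, 1885 did so, 102 lost the call, 2 gained it and 2 turned direction. The 2 that turned were Siglech in neonatal against adult DN, -0.031 to 0.22 when libraries were left out (lowest without adult DN replicate 3), and Ighm in adult DN against DP, -0.23 to 0.81 (lowest without adult DN replicate 4). The count of members called in DN between the ages was 27 to 29 when each library was left out in turn. In DP it was 3 with no filter on low counts, 0 with only the groups compared (Ctss was then too low for testing) and 0 to 1 when libraries were left out. In CD8 it was 12 with no filter, and for splenic CD8 against SP8 in adults it was 18 with no filter and 8 to 11 when libraries were left out, 8 without adult SP8 replicate 2 or 3 or adult CD8 replicate 4. For the age difference in DN minus that in DP it was 17 with no filter and 7 to 12 when libraries were left out, the lowest without adult DN replicate 4. For the age difference in CD8 minus that in SP8 it was 2 to 6 when libraries were left out, lowest without adult SP8 replicate 4 and 3 without neonatal SP8 replicate 2 or 3 or neonatal CD8 replicate 3. The cause of the larger counts with no filter was not tested. With the replicate number as a block, 28 members were called in DN between the ages (Cd68 lost), 28 in adult DN against DP and 16 in neonatal CD8 against SP8. A shared number is not stated to mark a shared animal or batch in any comparison. Total-count scaling shifted the median of all genes by more than 0.1 only in neonatal DN against DP (by -0.16). DESeq2 gave no adjusted p for Jchain in DN by age or in DN against DP at either age. Members at or near the floor outside DN could not be compared with precision at this depth.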
